A study of Arabidopsis thaliana with 6 samples.

Results

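Nitrogen supply to the Arabidopsis thaliana root was followed through 48 genes that take up, move, reduce and assimilate nitrate and ammonium, or that regulate the response to nitrate. They were chosen by gene identifier from a list of known nitrogen genes, at a time when earlier results of these data were known. All 48 were found among the 32833 genes of the deposited table. Roots of the mutant xal1-2 were compared with roots of WT plants. The mutant carries a loss-of-function allele of XAANTAL1 (XAL1), a MADS-box transcription factor gene, and has a short root with a shorter meristem and slower cell division, per the study's description. WT plants were Col-0. Both groups had the same growth conditions, with seedlings on vertical plates of 0.2X MS salts and 1% sucrose at 22 °C under 16 h of light and 8 h of dark, and no nitrogen treatment was applied. Whole roots without hypocotyls and cotyledons were taken at 8 days post sowing, in 3 biological replicates of about 60 plants each per genotype. The mutant is represented by 1 allele, so that effects of XAL1 loss and of anything else carried by the line cannot be told apart.

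Roots take up nitrate through low-affinity and dual-affinity transporters of the NPF family and high-affinity transporters of the NRT2 family. Nitrate is reduced to nitrite by nitrate reductase in the cytosol and then to ammonium by nitrite reductase in plastids, and ammonium from either this route or direct uptake is built into glutamine and glutamate by glutamine synthetase (GS) and glutamate synthase (GOGAT). Nitrate is also a signal: NLP transcription factors switch on nitrate-responsive genes, and LBD37 to LBD39 and the HRS1/HHO family, themselves induced by nitrate, are repressors of nitrogen genes.

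Each xal1-2 library held 6978879 to 9247089 recovered reads, and each WT library 7740207 to 8962691. Levels are given as scaled counts, the authors' read counts of a gene divided by a size factor of the library. XAL1 itself had 76.5, 102 and 103 scaled counts in the 3 xal1-2 libraries, against 264, 250.1 and 269 in the 3 WT libraries, and fell by 1.48 on the log2 scale (SE 0.14, limma adjusted p = 0.00034). Across all 24441 genes tested, 961 (3.93%) passed limma at an adjusted p under 0.05, 556 lower (2.27%) and 405 higher (1.66%) in xal1-2. This number rested on all libraries: without xal1-2 replicate 1 it was 81 (0.334%), without WT replicate 2 it was 193 (0.796%), without xal1-2 replicate 2 it was 326, without WT replicate 1 it was 430.0 and without xal1-2 replicate 3 it was 535. Replicate 3 of WT had a value of 35.0 on the second principal component, where WT replicates 1 and 2 had -15.6 and -9.16, and without it 871 genes passed. Among marker genes of root cell types, 8 of 11 endodermis barrier genes were lower in xal1-2, with summed levels of 7013 to 7554 against 9799 to 11124 scaled counts in WT. The same was true of 4 of 6 xylem genes (sums of 2737 to 3139.7 in xal1-2 against 3712 to 4358 in WT) and 3 of 4 phloem genes (816 to 1197 in xal1-2 against 1524 to 2009.7 in WT). None of 7 root hair, 2 cortex, 2 pericycle and stele, 4 root cap, 4 meristem and 7 green tissue markers passed limma, and no marker was at 0 in all libraries. The sums of root cap markers (156 to 192 in xal1-2 against 132 to 150 in WT) were nevertheless higher in xal1-2 without overlap. So were those of meristem markers (192 to 249 in xal1-2 against 137 to 168 in WT). Sums of root hair, cortex, pericycle and stele, and green tissue markers overlapped. The part of all these markers in the results on nitrogen genes was not tested, and in bulk roots fewer cells of a type and less RNA per cell cannot be told apart.

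The nitrate reductase gene NIA1 and the nitrate-induced repressors LBD37, HRS1 and AT3G25790, an HRS1 homologue of the HHO group, were lower in xal1-2 roots, at 0.476, 0.703, 0.720 and 0.640 times the WT mean. These 4 were the genes that were lower by limma at an adjusted p under 0.05, of 46 that could be tested, against 2.27% of all genes. The high-affinity nitrate transporter gene NRT2.4 also passed, as the only 1 on the higher side (1.66% of all genes), but it had reads in xal1-2 libraries alone and entered the fit only through them, so its call is given as a description and no count of higher genes is read from it. NRT2.5 and NRT2.6 had 0 reads in every library and were not tested. The other 41 genes missed the threshold, which does not show that they were unchanged. Across the 46 genes 36 had a log2 fold change below 0, against 50.5% of all genes, and the median was -0.24, against -0.0040 over all genes. The median of these genes varied between libraries of a genotype with an SD of 0.13, and without WT replicate 2 the median log2 fold change was -0.14. The genes share the same 6 libraries, so they are not separate replicates of the genotypes. In 11 genes the 3 xal1-2 values all lay below the 3 WT values, against 11.7% of all genes. In GLN1;3 and ASN2 they all lay above, against 12.1% of all genes. NRT2.4 separated too, but this followed from its entry through xal1-2 reads alone, so it is not counted here. Count tests on the recovered reads called 5 genes lower and 0 higher in edgeR, which added the ammonium transporter gene AMT1;1. Its filter on low counts kept 42 of the nitrogen genes and 18918 of all genes. Of those 18918, edgeR called 5.56%, made up of 3.07% lower and 2.49% higher. DESeq2 called 6 lower and 0 higher, adding AMT1;1 and GLU1. Of the 18753 genes to which it gave an adjusted p, 5.62% were called, 3.57% lower and 2.05% higher. Both left NRT2.4 out, below edgeR's filter on low counts and without an adjusted p in DESeq2. In the authors' deposited table, 5 of the 42 genes with an adjusted p were under 0.05, namely NIA1, AMT1;1, LBD37, HRS1 and AT3G25790, all lower in xal1-2, against 5.38% of 19322 genes there.

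**Figure D1:**
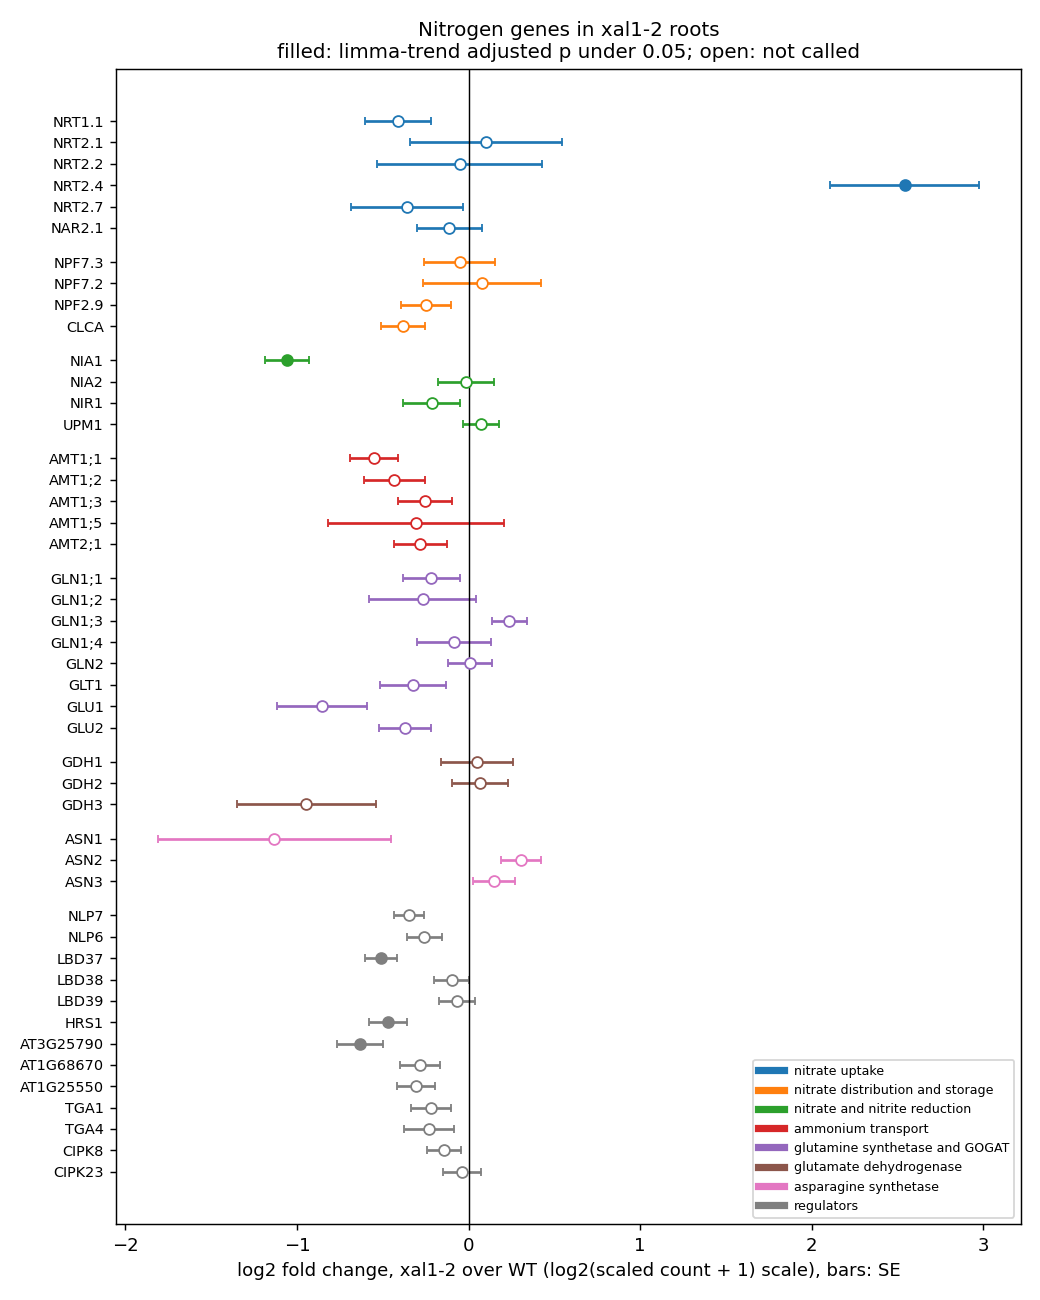
Log2 fold change of xal1-2 over WT for the 46 nitrogen genes tested, grouped by step, from limma on log2(scaled count + 1). Points are estimates, bars are standard errors, colour marks the step, and filled points passed an adjusted p of 0.05. Of the 46 points 36 lie left of 0, NRT2.4 was fitted against a WT group at 0, and NIA1 has the lowest called value (-1.06).

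Promoters were read for the genes on which the comparison turns. For NIA1, LBD37, HRS1 and AT3G25790, called lower, and for NIA2, the other nitrate reductase gene, as the comparison to NIA1, the 250 bases before the annotated gene start follow, read 5′ to 3′ on the gene's strand from the TAIR10.1 genome of RefSeq. Capitals mark GAATC, a motif bound by HRS1 and its homologues, on either strand. On the strand opposite to the gene it reads GATTC. Capitals also mark GAATATTC, an inverted repeat that overlaps no GAATC here. None of these windows holds transcribed bases of the gene itself.
NIA1, chr1:29239485-29239734, minus strand: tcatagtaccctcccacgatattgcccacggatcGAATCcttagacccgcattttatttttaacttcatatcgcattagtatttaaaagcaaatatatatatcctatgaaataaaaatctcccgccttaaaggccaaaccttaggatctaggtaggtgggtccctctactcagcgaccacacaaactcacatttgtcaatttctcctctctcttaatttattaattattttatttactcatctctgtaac
NIA2, chr1:14158202-14158451, plus strand: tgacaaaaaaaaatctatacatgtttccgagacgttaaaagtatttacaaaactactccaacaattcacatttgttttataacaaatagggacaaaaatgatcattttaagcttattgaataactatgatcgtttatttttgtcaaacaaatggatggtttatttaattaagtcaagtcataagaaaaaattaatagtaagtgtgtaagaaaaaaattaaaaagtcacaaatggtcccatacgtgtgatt
LBD37, chr5:26906525-26906774, minus strand: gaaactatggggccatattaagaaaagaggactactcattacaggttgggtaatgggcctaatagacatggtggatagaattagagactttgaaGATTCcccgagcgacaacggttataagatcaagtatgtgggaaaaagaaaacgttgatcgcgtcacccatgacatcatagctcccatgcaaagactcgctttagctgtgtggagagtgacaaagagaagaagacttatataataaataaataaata
HRS1, chr1:4556628-4556877, plus strand: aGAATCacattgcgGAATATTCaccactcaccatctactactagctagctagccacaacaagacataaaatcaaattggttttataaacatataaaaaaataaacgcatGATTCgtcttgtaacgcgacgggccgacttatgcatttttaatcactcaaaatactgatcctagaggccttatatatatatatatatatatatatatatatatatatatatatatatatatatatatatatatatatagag
AT3G25790, chr3:9412802-9413051, plus strand: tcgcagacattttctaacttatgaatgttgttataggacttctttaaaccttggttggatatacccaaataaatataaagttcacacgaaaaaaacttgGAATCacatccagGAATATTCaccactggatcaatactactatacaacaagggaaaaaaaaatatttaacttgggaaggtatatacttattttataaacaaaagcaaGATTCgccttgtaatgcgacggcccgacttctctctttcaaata

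NIA1, LBD37, HRS1 and AT3G25790 each held GAATC, as did NRT2.4, while the window of NIA2 held none. Among uncalled genes NIR1 (at -60), LBD38 (at -235) and LBD39 (at -110) held it too. Its presence thus did not separate called from uncalled genes. In NIA1 the match began at base -216 before the gene start on the gene's own strand, and in LBD37 at -156 on the strand opposite to the gene. Matches began at -249 and -141 in HRS1, at -151 and -44 in AT3G25790, and at -161, -107 and -85 in NRT2.4. The letters are common: 26 of the 48 promoters (54.2%) and 38.8% of 27443 promoters of this length in the genome held at least 1 match. TGACG, the letters that name the TGA factors, was found in 11 of the 48 (22.9%) and in 18.6% of all promoters. Among the called genes it was found in LBD37, at -96 on the strand opposite to the gene. A relaxed form of the nitrate-responsive element, searched by its conserved letters on both strands, was found in none of the 48, and in 0.182% of all promoters. HRS1 and AT3G25790 share the 15-base run GGAATATTCACCACT, beginning at -237 in HRS1 and at -139 in AT3G25790, which no other of the 27443 promoters holds. It contains GAATATTC, which 0.86% of all promoters hold, among them those of NRT2.4 and GDH3. This run and GAATATTC were looked for after the promoters had been seen. A match is a description of the letters and does not show a bound site.

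Uptake of nitrate was covered by 8 genes, of which 6 could be tested. NRT1.1, the dual-affinity transporter that also acts as a nitrate sensor, had 3354, 4246 and 2817 scaled counts in xal1-2, against 4867, 5619.8 and 3464 in WT, with -0.41 as the log2 fold change (SE 0.19, limma adjusted p = 0.267). The groups overlapped, because xal1-2 replicate 2 lay above WT replicate 3. NRT2.1, the main high-affinity transporter of nitrate-fed roots, had 131, 542 and 149 scaled counts in xal1-2, against 183, 317 and 147 in WT (log2 fold change 0.10, 95% interval -0.87 to 1.07, limma adjusted p = 0.921). Its spread came from replicate 2 of each genotype, which was the highest of its group, and without xal1-2 replicate 2 the log2 fold change was -0.55. Its partner protein NAR2.1 had 911, 1162 and 955 scaled counts in xal1-2, against 1283, 1318 and 754 in WT, with overlapping groups and a log2 fold change of -0.11 (limma adjusted p = 0.771). The ratio of NRT2.1 to NAR2.1 did not differ beyond its spread either (log2 difference 0.21, exact two-sided permutation p = 0.8, 11 ratios tested, smallest p possible 0.1).

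NRT2.4, a transporter of very high affinity known for its induction in nitrogen-starved roots, had 3, 10 and 4 reads in the xal1-2 libraries, or 3.42, 8.87 and 3.53 scaled counts, against 0 reads in all 3 WT libraries. After scaling by the library factors, its 17 reads stood at 5.28 times the level that 3 reads over the WT group would give. The 3 reads are a floor set for a group at 0, and counting error of the 17 reads is not included. The gene entered only through xal1-2 reads, so this value is a description. The limma value (log2 fold change 2.54, SE 0.43, adjusted p = 0.0113) depends on the added 1 and sets these reads against a group with no spread. Filters on low values in edgeR, in limma-voom and in the limma fits limited to higher genes removed the gene, and DESeq2 gave it no adjusted p. The limma call was also lost without xal1-2 replicate 1 (limma adjusted p = 0.0725), without xal1-2 replicate 2 (0.0561) or without WT replicate 2 (0.0545). NRT2.2, the neighbour of NRT2.1, was near 0 in all libraries, with at most 1 read in any library, and 8.86% of the 50-base windows of NRT2.1 and 11.1% of those of NRT2.2 are identical between both, so that some reads could have been assigned to either. NRT2.7, which loads nitrate into seed vacuoles, had 13.2 to 16.0 scaled counts in xal1-2 and 11.9 to 23.8 in WT. In these roots the transcripts of the NRT2 family were thus mostly those of NRT2.1, at 129.9 scaled counts per kb of exon in xal1-2 and 102 in WT, while NRT1.1 stood at 1577 per kb in xal1-2 and 2112 in WT.

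Of the 4 genes that distribute or store nitrate, none passed limma. NPF7.3 (NRT1.5), which loads nitrate into the xylem, had 8875, 4819 and 5522 scaled counts in xal1-2, against 6921, 5747 and 6627 in WT (log2 fold change -0.05, 95% interval -0.51 to 0.40, limma adjusted p = 0.913). Here xal1-2 replicate 1 was the highest of all 6 libraries and xal1-2 replicate 2 the lowest. The sign of this value turned with the scaling, being 0.0080 with library totals and 0.00054 in edgeR. CLCA, the nitrate/proton exchanger that fills the vacuole, averaged 1766 ± 205 scaled counts in xal1-2 and 2308 ± 313 in WT (SD, n = 3 each; log2 fold change -0.38, limma adjusted p = 0.127). Its groups overlapped through xal1-2 replicate 3, which lay above WT replicate 3. NPF2.9 (NRT1.9), expressed in phloem companion cells, and NPF7.2 (NRT1.8), which retrieves nitrate from the xylem, had log2 fold changes of -0.25 and 0.08 with overlapping groups.

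Reduction of nitrate held the largest called decrease of the 48 genes. NIA1, at chr1:29235721-29239484 on the minus strand, had 451, 525 and 445 scaled counts in xal1-2, against 874, 1196 and 916 in WT. All 3 xal1-2 libraries lay well below all 3 WT libraries, and the highest xal1-2 value was below the lowest WT value by more than the range within xal1-2. NIA1 fell by 1.06 on the log2 scale (SE 0.13, limma adjusted p = 0.00176), and count tests gave adjusted p-values of 0.00261 in edgeR and 1.2e-09 in DESeq2. With only xal1-2 replicate 1 left out the limma adjusted p was 0.0584 at a log2 fold change of -1.03, and with any other library left out it ran from 0.00332 to 0.0128.

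NIA2, at chr1:14158452-14161938 on the plus strand and the main source of nitrate reductase activity in most tissues, had 5497, 7818 and 5889 scaled counts in xal1-2, against 5991, 7073 and 6138 in WT. The groups overlapped fully and their rounded means were equal, at 6401 ± 1242 in xal1-2 and 6401 ± 587 in WT (SD, n = 3 each). Its log2 fold change was -0.01 (95% interval -0.37 to 0.34, limma adjusted p = 0.974), with a sign that turned with the scaling (0.048 with library totals, 0.0042 with upper-quartile factors, 0.0085 in edgeR). Per kb of exon, NIA1 made up 7.69%, 6.39% and 7.12% of the summed NIA1 and NIA2 level in the xal1-2 libraries, against 12.9%, 14.6% and 13.2% in the WT libraries. The share averaged 7.07% ± 0.65 in xal1-2 and 13.6% ± 0.94 in WT (SD, n = 3 each) and the groups did not overlap. The log2 ratio of NIA1 to NIA2 was lower in xal1-2 by a difference of -1.05, with an exact two-sided permutation p = 0.1, the smallest that 3 against 3 libraries allow, and 0.275 after adjustment over the 11 ratios. Because NIA2 dominated, the summed level of both genes overlapped between genotypes, at 1858, 2606 and 1978 scaled counts per kb in xal1-2 and 2146, 2586 and 2205 in WT.

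NIR1, the nitrite reductase gene that acts after both, had 2371, 3256 and 2366 scaled counts in xal1-2, against 2896, 3786 and 2598 in WT (log2 fold change -0.21, SE 0.17, limma adjusted p = 0.526). The xal1-2 and WT values overlapped, with replicate 2 highest in each genotype. Relative to NIR1, NIA1 was lower by -0.85 on the log2 scale, again with the smallest possible exact permutation p = 0.1. UPM1, which makes the siroheme precursor for nitrite reductase, had 1109, 1366 and 1189 scaled counts in xal1-2, against 1099.7, 1236 and 1141 in WT (log2 fold change 0.07, limma adjusted p = 0.736).

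**Figure D2:**
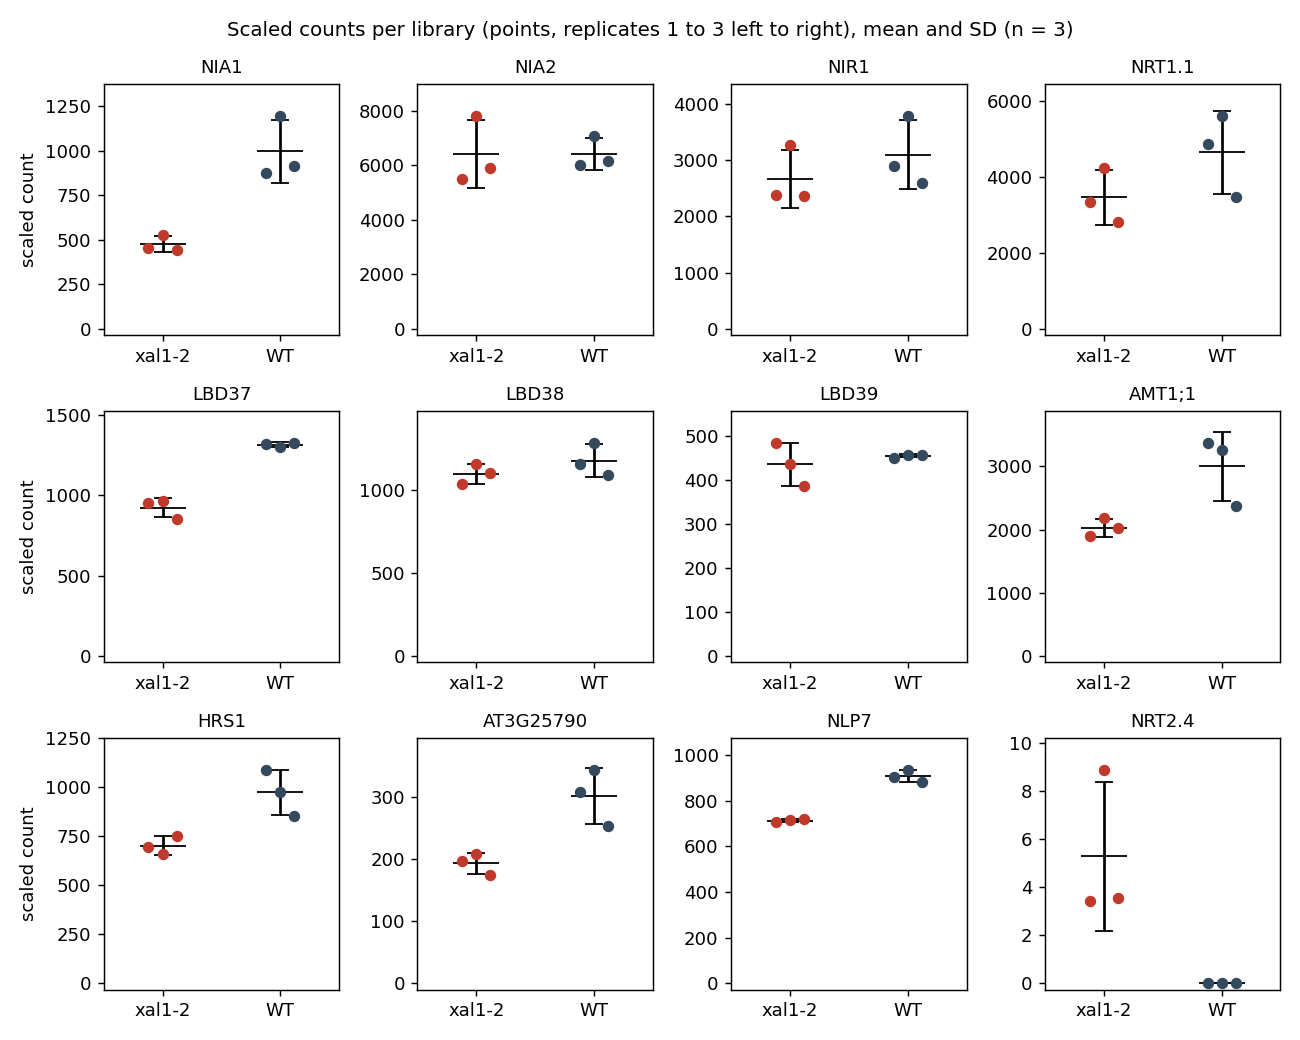
Scaled counts in each library for genes named in the text, with xal1-2 left of WT in each panel; points are replicates 1 to 3, the wide line is their mean and the bar the SD (n = 3). In the panels of NIA1 and LBD37 all xal1-2 points lie below all WT points, while those of NIA2 overlap.

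All 5 ammonium transporter genes had log2 fold changes below 0, against 50.5% of all genes, with a median of -0.30, and none passed limma. This median was the value of AMT1;5 itself (SE 0.51), a gene near 0 reads whose sign turned when a library was left out. AMT1;1, a high-affinity transporter of root hairs, epidermis and cortex, had 1896, 2176 and 2019.9 scaled counts in xal1-2, against 3373, 3259 and 2376 in WT. The groups did not overlap, but WT replicate 3 lay close to the xal1-2 values. The log2 fold change was -0.55 (SE 0.14) with a limma adjusted p = 0.0536, against 0.0453 in edgeR and 0.00407 in DESeq2, and without WT replicate 3 it was -0.71 with a limma adjusted p = 0.0142. AMT1;1 overlaps the gene AT4G13505 on the opposite strand, and the sources used here do not give the strand setting of the counting, so reads of both cannot be told apart. NPF7.3, NPF7.2, NPF2.9, CLCA, UPM1, GLT1, GLU1, GDH1, GDH3, ASN1 and TGA4 also overlap an annotated neighbour, and NIA1, LBD37, HRS1, AT3G25790 and NRT2.4 do not. AMT1;2, a transporter of endodermis and cortex, had 1006, 1273 and 1169 scaled counts in xal1-2, against 1108, 1718 and 1934 in WT (log2 fold change -0.43, limma adjusted p = 0.210). Its lowest WT library overlapped the xal1-2 range, and without that library, WT replicate 1, the limma adjusted p was 0.0336 at a log2 fold change of -0.67. The balance of AMT1;1 to AMT1;2 gave a log2 difference of -0.12 (exact two-sided permutation p = 0.7). AMT1;3 and AMT2;1 had log2 fold changes of -0.25 and -0.28, and AMT1;5 had at most 2 reads in any library. Summed per kb, the 5 transporters stood at 2289.8, 2811 and 2370.2 scaled counts in xal1-2, against 3442, 3729 and 3035 in WT, and the sums did not overlap.

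Assimilation into glutamine and glutamate was represented by 8 genes, and none passed limma. Log2 fold changes below 0 were found in 6, against 50.5% of all genes. GLN1;2, a cytosolic GS, was the most abundant of the 48 genes and the 5th highest in WT of 24324 genes when counted per kb. It had 26099.6, 38988 and 25964 scaled counts in xal1-2, against 40401, 45077 and 25215 in WT, so that the lowest library of all was WT replicate 3 and the groups overlapped (log2 fold change -0.27, 95% interval -0.95 to 0.42, limma adjusted p = 0.713). GLN1;3, a cytosolic GS of the vasculature, ran the other way, with 2034, 1784 and 1786 scaled counts in xal1-2, against 1619.7, 1524 and 1601 in WT. All 3 xal1-2 values were above all WT values, and the log2 fold change of 0.24 (SE 0.10) did not pass (limma adjusted p = 0.220). The ratio of GLN1;2 to GLN1;3 differed by -0.50 on the log2 scale with an exact two-sided permutation p = 0.2. The plastid enzyme GLN2 had 1725, 1838 and 1757 scaled counts in xal1-2, against 1859, 2043 and 1438 in WT (log2 fold change 0.01, 95% interval -0.27 to 0.29, and -0.0046 in DESeq2). GLN1;1 and GLN1;4 had values of -0.22 and -0.08.

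The 3 GOGAT genes all lay below 0. GLT1, the NADH-dependent enzyme that prevails in roots, had 11778, 12806 and 9648 scaled counts in xal1-2, against 12848, 16766 and 13195 in WT. Its groups did not overlap, by a narrow margin between xal1-2 replicate 2 and WT replicate 1 (log2 fold change -0.32, SE 0.19, limma adjusted p = 0.395). GLU1, the ferredoxin-dependent enzyme best known from leaf photorespiration, had 43.4, 84.3 and 92.7 scaled counts in xal1-2, against 102, 144 and 139 in WT, again without overlap. Its log2 fold change was -0.85 (SE 0.26), with a limma adjusted p = 0.0964 and a DESeq2 adjusted p = 0.0492. With the replicate number as a block the limma adjusted p was 0.0330. GLU2, the other ferredoxin-dependent enzyme, had a log2 fold change of -0.37 (limma adjusted p = 0.199).

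Glutamate dehydrogenase, which mainly releases ammonium from glutamate in carbon-limited cells, was represented by 3 genes, none of which passed limma. GDH1 had 1419.9, 943 and 1099 scaled counts in xal1-2, against 1601, 905 and 918 in WT, and GDH2 had 7369, 6924 and 7812 in xal1-2, against 8671, 6729 and 5939 in WT. In both genes the WT range enclosed the xal1-2 range, with log2 fold changes of 0.05 (95% interval -0.41 to 0.51) and 0.07 (-0.29 to 0.43). GDH3 was low throughout, at 2.66 to 3.53 scaled counts in xal1-2 and 4.34 to 11.9 in WT, without overlap (log2 fold change -0.95, limma adjusted p = 0.224).

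Asparagine synthetases make the amide in which nitrogen is stored and moved. ASN1, the form that rises in darkness and sugar shortage, had 38.8, 499 and 311 scaled counts in xal1-2, against 389, 519 and 322 in WT. One library, xal1-2 replicate 1, was far below the other 5, and the wide spread left the log2 fold change of -1.13 with an SE of 0.68 (limma adjusted p = 0.398). ASN2 had 364, 341 and 321 scaled counts in xal1-2, against 259, 255 and 319 in WT, all xal1-2 values being higher, if barely so for xal1-2 replicate 3 against WT replicate 3 (log2 fold change 0.31, SE 0.12, limma adjusted p = 0.178). ASN3 had a log2 fold change of 0.15 and overlapping groups.

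The 13 regulators all had log2 fold changes below 0, with a median of -0.26, from -0.63 in AT3G25790 to -0.04 in the kinase gene CIPK23, whose value was 0.023 with library totals. All 13 had a mean of at least 10 scaled counts, and 50.3% of all genes at that level had a log2 fold change below 0. Of the 13, 3 were lower by limma, against 2.74% of all genes at that level. In 6 all xal1-2 values lay below all WT values, against 13.6% of all genes at that level. LBD37, a LOB-domain repressor of nitrate-responsive genes that is itself induced by nitrate, lies at chr5:26903866-26906524 on the minus strand. It had 954, 962 and 854 scaled counts in xal1-2, against 1318, 1298 and 1327 in WT, a set of tight values with no overlap. LBD37 fell by 0.51 on the log2 scale (SE 0.09, limma adjusted p = 0.0161, edgeR 0.0182, DESeq2 0.00103). Leaving out a library ended this call in 4 of 6 cases, with limma adjusted p-values of 0.0836 without xal1-2 replicate 1, 0.0505 without xal1-2 replicate 3, 0.0524 without WT replicate 1 and 0.0777 without WT replicate 2, at log2 fold changes of -0.54 to -0.46.

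The paralogues LBD38 and LBD39 did not pass limma. LBD38 had 1036, 1158 and 1107 scaled counts in xal1-2, against 1159, 1287 and 1093 in WT (log2 fold change -0.10, 95% interval -0.32 to 0.12, limma adjusted p = 0.658). LBD39 had 484, 436 and 387 scaled counts in xal1-2, against 451, 457 and 455 in WT (log2 fold change -0.07, 95% interval -0.30 to 0.16, limma adjusted p = 0.751). Both overlapped between genotypes. The log2 ratio of LBD37 was lower in xal1-2 by -0.41 relative to LBD38 and by -0.44 relative to LBD39, and in each ratio the groups did not overlap (exact two-sided permutation p = 0.1 each, the smallest possible, and 0.275 after adjustment over 11 ratios).

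HRS1 and its homologues are GARP-type repressors that link nitrate and phosphate signals in the root. HRS1, at chr1:4556878-4558793 on the plus strand, had 694, 657 and 752 scaled counts in xal1-2, against 1088, 976 and 855 in WT, without overlap. It fell by 0.47 on the log2 scale (SE 0.11, limma adjusted p = 0.0418, edgeR 0.0431, DESeq2 0.0150). This call was near the threshold, with a limma adjusted p of 0.0539 with library totals, 0.0503 with a pseudocount of 0.1, and 0.0626 with the replicate number as a block. AT3G25790, at chr3:9413052-9415240 on the plus strand, had 196, 209 and 175 scaled counts in xal1-2, against 308, 344 and 253 in WT, also without overlap. It fell by 0.63 on the log2 scale (SE 0.13, limma adjusted p = 0.0274, edgeR 0.0257, DESeq2 0.00845). The ratio of HRS1 to AT3G25790 differed by 0.17 on the log2 scale, within its spread (exact two-sided permutation p = 0.4). Without WT replicate 3 both passed limma, at 0.0279 and 0.0184, and without any other library neither did. HRS1 then had adjusted p-values of 0.175 and 0.136 without xal1-2 replicates 1 and 2, 0.0639 without xal1-2 replicate 3, and 0.134 and 0.154 without WT replicates 1 and 2. For AT3G25790 these values were 0.141, 0.0582, 0.0840, 0.0799 and 0.135, in the same order. The other homologues of the list, AT1G68670 and AT1G25550, had log2 fold changes of -0.28 and -0.31 (limma adjusted p = 0.200 and 0.145).

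NLP7, the transcription factor that binds nitrate and starts the primary nitrate response, had 707, 714 and 717 scaled counts in xal1-2, against 904, 934 and 883 in WT. Both genotypes were tight and did not overlap, with means of 713 ± 5.61 in xal1-2 and 907 ± 25.9 in WT (SD, n = 3 each). The log2 fold change was -0.35 (SE 0.09), just above the threshold at a limma adjusted p = 0.0525, and under it at 0.0492 when only genes with a mean of at least 10 were tested. Its paralogue NLP6 had 434 ± 41.7 scaled counts in xal1-2 and 517 ± 8.72 in WT (SD, n = 3 each; log2 fold change -0.26, limma adjusted p = 0.192), and the ratio of NLP7 to NLP6 did not differ beyond its spread (log2 difference -0.09, exact two-sided permutation p = 0.4). The bZIP factors TGA1 and TGA4, which act downstream of nitrate sensing, had log2 fold changes of -0.22 and -0.23. The kinase CIPK8, a positive regulator of the low-affinity nitrate response, had -0.14. Per kb, the summed level of the 13 regulators was 4606, 4741 and 4706 scaled counts in xal1-2, against 5765, 5840.2 and 5208 in WT, and the sums did not overlap. Of the 8 steps, the sums of the regulators and of ammonium transport were the 2 that did not overlap between genotypes, both lower in xal1-2, and the sums of the other 6 steps overlapped. All sums rest on the same libraries and were not tested. Among single genes, 11.7% of all genes lay lower in xal1-2 without overlap.

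**Figure D3:**
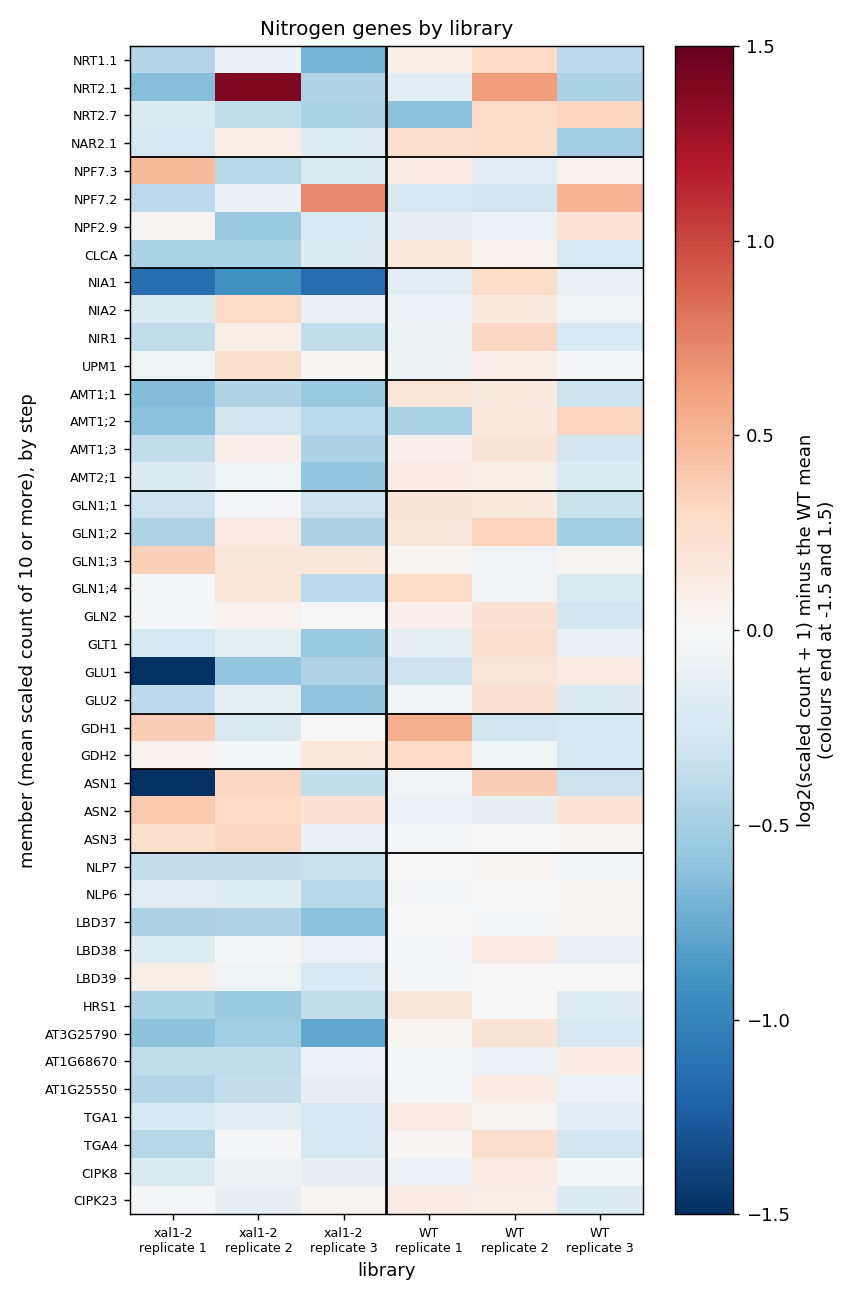
Level of the 42 nitrogen genes with a mean of at least 10 scaled counts in each library, as log2(scaled count + 1) minus the gene's WT mean, with xal1-2 columns left of WT columns, genes grouped by step and colours that end at -1.5 and 1.5. LBD37, HRS1 and AT3G25790 lie below the WT mean in all 3 xal1-2 columns, while NRT2.1 and ASN1 vary more between libraries of 1 genotype than between genotypes.

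Libraries of 1 genotype were not evenly ranked over the nitrogen genes. Among the 42 genes with a mean of at least 10 scaled counts, xal1-2 replicate 2 was the highest of its group for 25 (59.5%), against 31.8% of all 18823 genes at that level. WT replicate 2 was the highest of its group for 21, against 29.0% of all genes, and WT replicate 3 the lowest for 23 (54.8%), against 35.8%. GLN1;2, NRT1.1, NIA2, NIR1 and GLT1, for example, had replicate 2 at the top in both genotypes. Without xal1-2 replicate 2 all remaining xal1-2 values lay below all WT values in 19 of the 46 genes (41.3%), against 15.7% of all genes, and without WT replicate 3 in 25 (54.3%), against 19.5% of all genes. Fewer libraries make such separation easier, so these counts are not set against the 11 found with all 6.

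**Figure D4:**
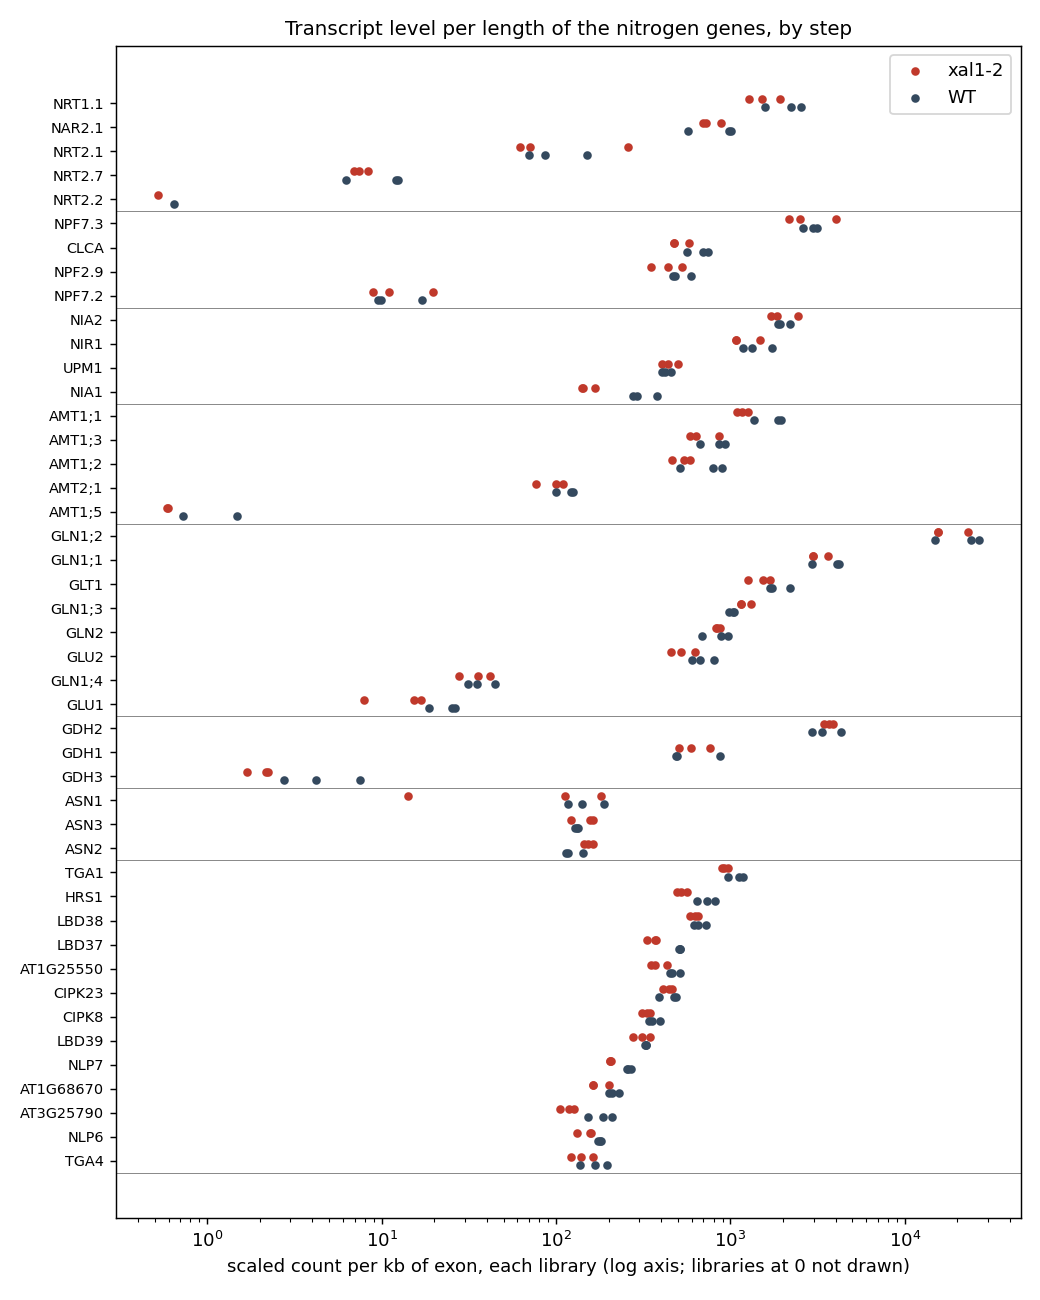
Scaled counts per kb of exon (log axis) of the nitrogen genes in each xal1-2 and WT library, grouped by step, with libraries at 0 not drawn. GLN1;2 is the highest in both genotypes (mean of 18001 in xal1-2, 21885 in WT), and NRT2.4, NRT2.5 and NRT2.6 are left out because at least 1 genotype is at 0 in all libraries.

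Other genes of the pathway were counted from 4 lists that hold none of the 48, of which 68 genes were tested. In xal1-2, 4 were lower and 1 was higher by limma, against 2.27% and 1.66% of all genes. A log2 fold change below 0 was found in 46, against 50.5% of all genes. Their median was -0.07, against -0.0040 over all genes. ASP2, the cytosolic aspartate aminotransferase that makes aspartate for asparagine, had 2185, 2802 and 2007 scaled counts in xal1-2, against 1392, 1385 and 1431 in WT, and rose by 0.72 on the log2 scale (limma adjusted p = 0.0136). All xal1-2 libraries lay above all WT libraries. Of the 16 further nitrate transport genes tested, 15 had values below 0, with a median of -0.41, and 2 passed. These were SLAH2, an anion channel gene with 82.2, 57.7 and 75.9 scaled counts in xal1-2, against 137, 125 and 146 in WT (log2 fold change -0.92, limma adjusted p = 0.0162), and AT1G22550, annotated as a major facilitator superfamily protein (log2 fold change -0.50, limma adjusted p = 0.0215). Of the 28 further regulators tested, the lower ones were CPK32, a calcium-dependent kinase that acts on NLP7 in nitrate signalling, and NAC4, a transcription factor of the nitrate response of root architecture. CPK32 had 439, 442 and 459 scaled counts in xal1-2, against 612, 666 and 649.8 in WT (log2 fold change -0.52, limma adjusted p = 0.0133), and NAC4 had 158, 191 and 201 in xal1-2, against 349.6, 443 and 237 in WT (log2 fold change -0.86, limma adjusted p = 0.0359). Neither overlapped between genotypes. None of the 13 genes of cofactors and reductant passed, and in the list of ammonium, urea and amino acid genes ASP2 was the only one of 11 that did. With 1 library left out, all 5 of these calls were lost without xal1-2 replicate 1 (limma adjusted p of 0.0755 to 0.214) and without WT replicate 2 (0.0576 to 0.144). All but ASP2 were also lost without xal1-2 replicate 2 (0.0532 to 0.0870), AT1G22550, SLAH2 and NAC4 without WT replicate 1 (0.0507 to 0.0939), and NAC4 without xal1-2 replicate 3 (0.0684). This step was added after seeing the data.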

How the data were processed

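Per the labels' protocols, a stranded mRNA kit gave paired-end libraries of 6 root samples. The submitters' processing notes name Subread 2.0.1, Trimmomatic 0.39, FastQC 0.11.9, DESeq2 and the TAIR10 build. The sources used here do not give the strand setting or how multiply matching reads were handled. The authors deposited a signal per gene and library, the read count divided by a size factor, and 100% of values were whole reads (tolerance 0.001) after multiplication by it. The authors also deposited log2 fold changes with standard errors, p-values and, as a score, the statistic of each gene's test.

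Genes above 0 in at least 1 library (24441) were tested with limma 3.58.1 (R 4.3.3, intensity trend) on log2(scaled count + 1), with genotype as the only term and Benjamini-Hochberg adjustment over all of them, and were called at an adjusted p under 0.05. This understates fold changes of low genes. Alternatives were edgeR 4.0.16 (quasi-likelihood) and DESeq2 1.42.0 on recovered reads, limma-voom, other scalings, pseudocounts, filters and thresholds, a replicate block and leaving out each library. Replicate pairs differed beyond sampling noise (chi-square per degree of freedom 4.09 to 10.1), so all 6 libraries counted as separate samples.

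Values in each library are given for called genes and for preset genes of each step, and genes outside the 48 are named where called. The 48 genes, the lists and the rules were chosen with earlier results of these data known. Coordinates, exon lengths and promoters come from RefSeq's TAIR10.1 and were not converted from the TAIR10 build of the counts. Of the 32833 identifiers, 32548 matched.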

Additional observations from a re-analysis of the deposited data

How the results depend on the processing

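The median log2 fold change of the nitrogen genes stayed below 0 in all settings (-0.33 to -0.14), and that of all genes ran from -0.01 to 0.05. Against 4 genes lower and 1 higher (NRT2.4, whose call is a description only), 0 were higher with a mean of at least 10, filterByExpr, edgeR, DESeq2 or limma-voom. An adjusted p under 0.01 left 1 lower and 0 higher (all genes called: 194), and under 0.1 gave 7 lower and 1 higher (all genes called: 1904). A fold change above 1.5 left 2 lower and 1 higher (all genes called: 703). These numbers of all genes join both directions, so no result about the nitrogen genes is read from these counts. Leaving out 1 library gave 0 to 5 lower and 0 to 1 higher, with 81 to 871 of all genes called in either direction (0.334% to 3.6%). All xal1-2 values lay below WT in 12 to 25 genes (26.1% to 54.3%, against 15.3% to 19.5% of all genes). They lay above WT in 3 to 5 (6.52% to 10.9%, against 15.0% to 18.7%). The counts above WT include NRT2.4, which entered through xal1-2 reads alone, so nothing is read from them. The replicate block gave 4 lower and 1 higher, with 839 of all genes called in either direction (3.43%). It lost HRS1 (adjusted p = 0.0626) and gained GLU1 (0.0330). Same-numbered libraries correlated at 0.01, 0.28 and 0.01, and differently numbered ones at -0.25 to 0.18. The numbers were not taken as pairs. The value of replicate 2 (0.28) was the highest of all, and an effect shared by these libraries was not tested. Log2 ratios turned when 1 library was left out for NRT2.1/NAR2.1 (-0.33 to 0.52), GDH1/GDH2 (-0.18 to 0.10) and AMT1;1/AMT1;2 (-0.44 to 0.21). Among uncalled genes, signs turned for NIA2 (0.048 with library totals, 0.0042 with upper-quartile factors, 0.0085 in edgeR, 0.00033 in DESeq2), NPF7.3 (0.0080 with library totals, 0.00054 in edgeR), CIPK23 (0.023 with library totals) and GLN2 (-0.0046 in DESeq2). With 1 library left out, log2 fold changes on both sides of 0 were those of NRT2.1 -0.55 to 0.47, NRT2.2 -0.36 to 0.31, NAR2.1 -0.37 to 0.029, NPF7.3 -0.31 to 0.13, NPF7.2 -0.25 to 0.34, NIA2 -0.17 to 0.088, UPM1 -0.011 to 0.14, AMT1;5 -0.76 to 0.079, GLN1;4 -0.21 to 0.074, GLN2 -0.14 to 0.12, GDH1 -0.11 to 0.32, GDH2 -0.054 to 0.22, LBD39 -0.15 to 0.015 and CIPK23 -0.14 to 0.017. The cause was not tested. Depth limits NRT2.2, NRT2.4, AMT1;5 and GDH3, each at a mean under 10 scaled counts.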
